A study of Mus musculus with 8 samples.

Results

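The genes described are 10 integrin genes other than the platelet pair Itga2b and Itgb3: the alpha subunit genes Itga1, Itga2, Itga4, Itga5, Itga6, Itgal and Itgam, and the beta subunit genes Itgb1, Itgb2 and Itgb7. They were chosen by name from the 24411 genes of the deposited tables, with earlier results of these data known. All 10 were found, and all 10 passed the filter on low counts. The RNA came from wild-type mice of strain C57BL/6, whose marrow was sorted into 4 fractions of common myeloid progenitors, cells that give rise to granulocytes, monocytes, red cells and megakaryocytes. Every fraction was gated as positive for KIT and negative for CD16/32. CD34bright cells were also CD41+ CD9+. CD41/CD9-negative cells were CD34dim and lacked both CD41 and CD9, while CD48bright and CD48dim cells had CD34dim staining, were positive for CD41 and CD9, and differed in their CD48 staining. Each fraction had 2 libraries, and no label says whether these came from separate mice or sorts, so a p-value here stands for variation among these libraries alone, and that may be technical. In such bulk samples, fewer cells of a type and less RNA per cell cannot be told apart.

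Integrins are cell surface receptors made of an alpha and a beta subunit, and a subunit reaches the surface only with a partner. They bind matrix proteins such as fibronectin, laminin and collagen, or cell surface ligands such as VCAM1, MAdCAM1 and the ICAMs. Talin and kindlins switch them into a form that binds ligand. In bone marrow they hold stem and progenitor cells in the niche and guide their homing, and in mature white blood cells the beta2 group serves adhesion to vessel walls and the uptake of particles.

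The libraries held 7237587 to 20632005 expected counts, with the smallest total in CD48dim replicate 2. The CD48dim libraries were the least alike: the Spearman correlation of their levels, across genes, was 0.836, against 0.954 to 0.976 for the replicates of the other fractions. Of the sort genes, Cd48 lay at 35.8 and 16.9 CPM in CD48dim libraries against 156.6 to 245.9 CPM elsewhere, Cd9 was lower in both CD41/CD9-negative libraries than in the other 6, at 26.6 to 56.8 CPM, and Kit was read at 240.0 to 1226.3 CPM in all 8. Fcgr3 (3.02 to 87.3 CPM) and Fcgr2b (13.5 to 41.2 CPM), genes of the receptors CD16 and CD32 for which the cells were gated negative, also had counts in all 8. The Malat1 level of CD48dim replicate 2 was 38947 CPM (counts scaled to the library total), against 5004 to 14867 CPM in the other 7 libraries. In every fraction Malat1 was higher in replicate 2 than in replicate 1, and replicate 2 had the smaller total. Mature neutrophil transcripts (10 of 10 listed genes with counts in every library) were highest in CD48dim replicate 1, with a sum of 4174.9 CPM, against sums of 49.9 to 702.0 CPM elsewhere. Red cell transcripts were highest in the same library, at 261.0 CPM against 6.6 to 40.3 CPM elsewhere, and macrophage transcripts summed to 4.04 to 50.5 CPM. In CD41/CD9-negative libraries, where Itga1, Itgb7 and Itgal were highest, B cell transcripts summed to 98.7 and 65.0 CPM, against 11.5 to 48.5 CPM elsewhere, and stroma and endothelium transcripts to 257.6 and 278.4 CPM, against 112.5 to 211.7 CPM elsewhere. Of the stroma and endothelium list, however, Col1a2 had no count in either CD41/CD9-negative library, and Col1a1 had none in replicate 2. CD34bright replicate 1 also lacked counts of both. The part of any of these marker transcripts in the integrin levels was not tested. Where leaving out 1 CD48dim library changed a member's call, that is given with the member.

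Between the 4 fractions, Itga1 and Itgb7 passed the test for any difference (edgeR's quasi-likelihood test, Benjamini-Hochberg adjusted p below 0.05 over all 13177 tested genes), 2 of 10 members where 2.44% of all tested genes passed. With the replicate number as a block, Itga5, Itga6, Itgal and Itgam also passed, which made 6 of 10, against 5.80% of all genes. Itga2, Itga4, Itgb1 and Itgb2 passed in neither fit. Because earlier results were known when the members were chosen, counts of members beside the share of all genes are no independent test. The calls of Itga1 and Itgb7 were lost without CD41/CD9-negative replicate 1 or replicate 2. With limma-voom Itgb7 kept its call for any difference (adjusted p = 0.0354), and Itga1 lost it (adjusted p = 0.0688). Leaving out CD48dim replicate 1 or replicate 2 raised the calls among all genes as well as among the members. Member counts from those fits are therefore no result about the integrin genes. CD48dim cells were the lowest of the 4 fractions in Itga1, Itgb7 and Itgal and the highest in Itga5. CD41/CD9-negative cells were the highest in Itga1, Itgb7 and Itgal and the lowest in Itga5, Itga6 and Itga2.

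**Figure D1:**
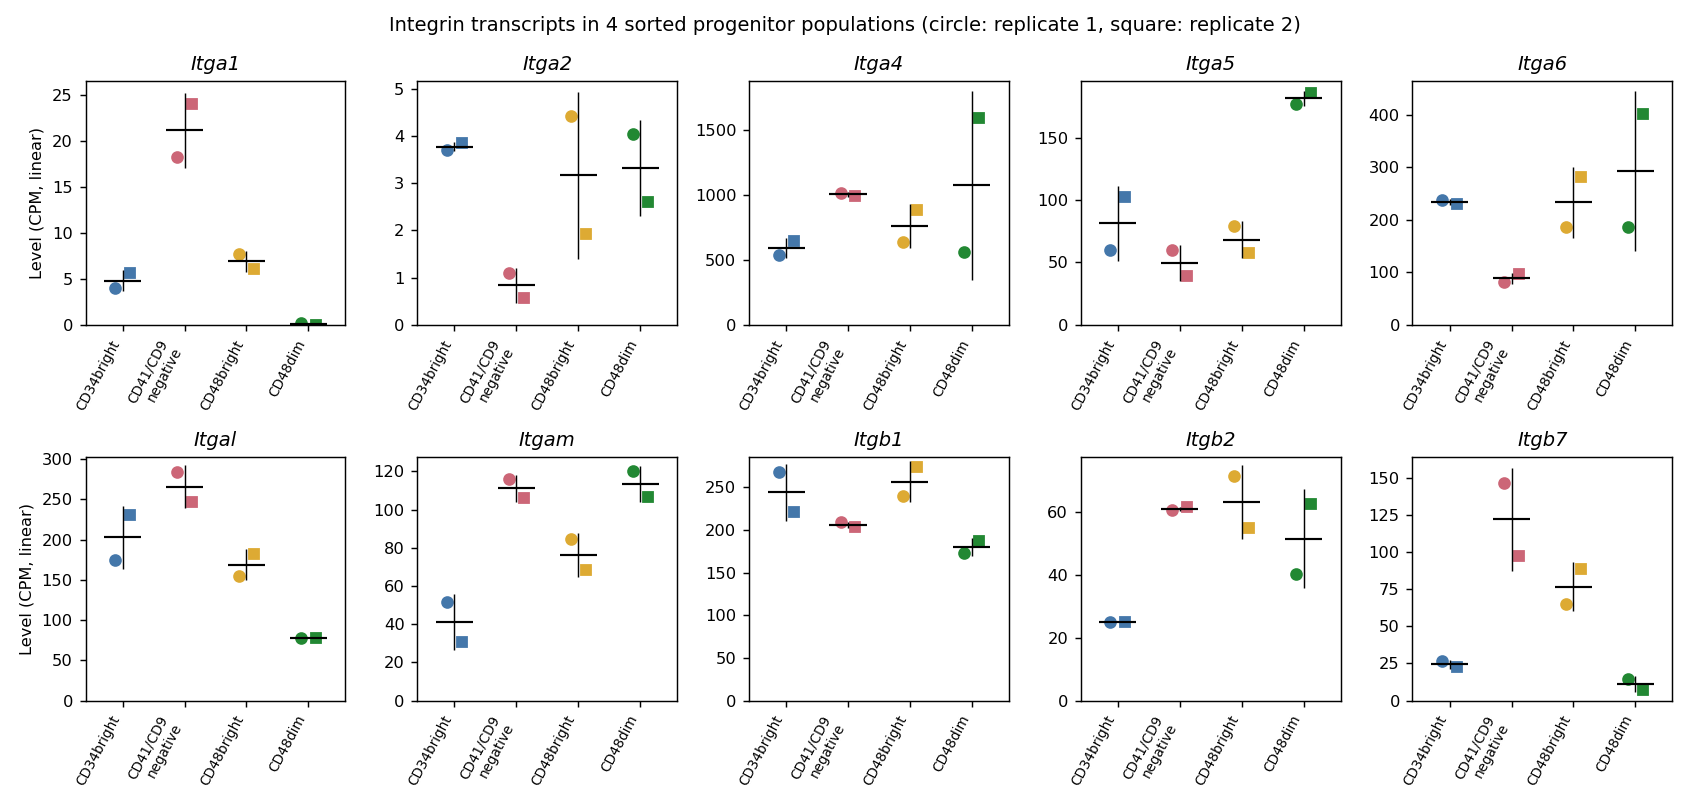
Level of each integrin gene in CPM (linear axes that start at 0) in every library of the 4 sorted populations; circles are replicate 1, squares replicate 2, horizontal bars the mean and vertical bars the SD (n = 2). Itgb7 lies at 97.6 and 146.8 CPM in CD41/CD9-negative cells and at 7.42 and 14.7 CPM in CD48dim cells, and Itga5 shows the opposite order.

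Itgb7 encodes beta7, which pairs with alpha4 into the receptor for the gut addressin MAdCAM1 and with the product of Itgae into a receptor for E-cadherin. The gene lies on the minus strand of chromosome 15 (102215994 to 102233405, GRCm38.p6). Its level was 26.4 and 22.3 CPM in CD34bright, 146.8 and 97.6 CPM in CD41/CD9-negative, 65.1 and 88.8 CPM in CD48bright, and 14.7 and 7.42 CPM in CD48dim libraries. The libraries of the 4 fractions did not overlap, and the order of the fractions was CD41/CD9-negative, CD48bright, CD34bright, CD48dim. The mean was 122.2 ± 34.8 CPM in CD41/CD9-negative and 11.1 ± 5.13 CPM in CD48dim cells (SD, n = 2 each), a log2 fold change of 3.46 ± 0.46 (SE, edgeR adjusted p = 0.00539). This difference passed in all 8 fits with 1 library left out. It was 4.05 without CD48dim replicate 1 and 3.06 without CD48dim replicate 2.

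Against CD48dim, Itgb7 was also higher in CD48bright cells (76.9 ± 16.7 against 11.1 ± 5.13 CPM, log2 fold change 2.79 ± 0.45, edgeR adjusted p = 0.0453). In CD34bright cells it was lower than in CD41/CD9-negative cells (24.3 ± 2.85 against 122.2 ± 34.8 CPM, log2 fold change -2.33 ± 0.44, edgeR adjusted p = 0.0476). Both calls were close to the threshold, and limma-voom kept only the second (adjusted p = 0.0967 and 0.0258). Each was lost when any 1 of the 6 libraries outside CD48dim was left out (edgeR adjusted p = 0.0617 to 0.232 for CD48bright against CD48dim, and 0.0781 to 0.448 for CD34bright against CD41/CD9-negative). Without CD48dim replicate 1 the CD48bright difference was 3.38, and without CD48dim replicate 2 it was 2.39. Neighbours in the order did not pass: CD41/CD9-negative against CD48bright gave 0.67 ± 0.42 (edgeR adjusted p = 0.92), CD34bright against CD48bright -1.66 ± 0.43 (adjusted p = 1), and CD34bright against CD48dim 1.13 ± 0.43 (adjusted p = 0.203). The last passed without CD48dim replicate 1 (1.73), where far more of all genes passed than in the full fit. It did not pass without CD48dim replicate 2.

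Itga1 encodes alpha1, which pairs with beta1 into a collagen receptor known from activated and tissue-resident lymphocytes. It lies on the minus strand of chromosome 13 (114958079 to 115101964). It was read at 4.02 and 5.61 CPM in CD34bright, 18.3 and 24.1 CPM in CD41/CD9-negative, 7.75 and 6.13 CPM in CD48bright, and 0.147 and 0 CPM in CD48dim libraries. CD41/CD9-negative libraries were thus the highest and CD48dim libraries close to 0, with no overlap between any 2 fractions. The counts were 232 and 299 in CD41/CD9-negative against 2 and 0 in CD48dim libraries. Per scaled total this was a ratio of 221.1, with an exact 95% interval of 60.9 to 1831 that covers counting error only (edgeR adjusted p = 0.00539). The test passed in all 8 fits with 1 library left out, with a fitted log2 fold change of 7.74 in the full data, 11.18 without CD48dim replicate 1, which leaves CD48dim at 0 counts, and 7.10 without CD48dim replicate 2.

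From so few CD48dim counts a fitted fold change depends on the prior count, so ratios of summed counts are given for the other fractions too. CD34bright cells had 157 counts against 2 in CD48dim, a ratio of 49.0 (95% interval 13.3 to 408, edgeR adjusted p = 0.0462). CD48bright cells had 216 counts against 2, a ratio of 74.8 (20.5 to 622, edgeR adjusted p = 0.0453). By limma-voom neither pair passed (adjusted p = 0.1 for CD34bright and 0.134 for CD48bright). Without 1 of the 6 libraries outside CD48dim neither passed (edgeR adjusted p = 0.0727 to 0.214 for CD34bright and 0.0701 to 0.189 for CD48bright). Without CD48dim replicate 1 or replicate 2 they passed, with fitted log2 fold changes of 9.05 or 4.96 for CD34bright and 9.58 or 5.49 for CD48bright. Among the other 3 fractions, CD41/CD9-negative against CD48bright (1.61 ± 0.71, edgeR adjusted p = 0.697), CD34bright against CD48bright (-0.53 ± 0.70, adjusted p = 1) and CD34bright against CD41/CD9-negative (-2.14 ± 0.73, adjusted p = 0.294) did not pass. The last passed without CD48dim replicate 1 (adjusted p = 0.0254) or replicate 2 (0.024).

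The gene Pelo lies within Itga1 on the same strand, and the libraries carry no strand information. The 2 genes share 0 exon bases in the GENCODE M21 annotation. The deposited posterior standard deviation of the count was 0 for all 10 members in all 8 libraries, under an annotation whose release is not given. It was 0 also for Itga4, which shares 346 exon bases with Cerkl in GENCODE M21. The value of 0 therefore does not settle how reads from overlapping genes were placed. Pelo lay at 16.9 and 20.3 CPM in CD34bright, 14.6 and 9.36 in CD41/CD9-negative, 22.7 and 6.22 in CD48bright, and 7.85 and 0.137 in CD48dim libraries. Like Itga1 it was lowest on average in CD48dim cells, and its highest mean was in CD34bright. The part of Pelo reads in the Itga1 level was not tested.

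Itgal encodes alphaL, which with beta2 forms the ICAM receptor of white blood cells known as LFA-1. Its locus is on chromosome 7 (127296139 to 127335137, plus strand). Its level was 174.8 and 230.7 CPM in CD34bright, 284.6 and 247.3 in CD41/CD9-negative, 155.2 and 182.7 in CD48bright, and 77.7 and 78.3 in CD48dim libraries. CD48dim lay below each of the other 6 libraries, and CD34bright and CD48bright overlapped. CD41/CD9-negative cells averaged 265.9 ± 26.4 CPM and CD48dim cells 78.0 ± 0.413 CPM (SD, n = 2 each), a log2 fold change of 1.77 ± 0.31 (edgeR adjusted p = 0.0173). The call was lost without CD41/CD9-negative replicate 1 (1.69, adjusted p = 0.125) or replicate 2 (1.87, adjusted p = 0.0984). It held without CD48dim replicate 1 (1.77) and without CD48dim replicate 2 (1.78). CD34bright against CD48dim gave 1.38 ± 0.31 (edgeR adjusted p = 0.0773), and passed with the replicate block (1.37, adjusted p = 0.0265). It also passed without CD48dim replicate 1 (1.38, adjusted p = 0.0117) or replicate 2 (1.39, adjusted p = 0.0405). CD48bright against CD48dim gave 1.11 ± 0.31 (adjusted p = 0.169). It passed without CD48dim replicate 1 (1.12) but not without CD48dim replicate 2. With the block Itgal also passed for any difference (adjusted p = 0.0232, against 0.0615 without it). Leaving out CD48dim replicate 1 or replicate 2 likewise made Itgal pass for any difference. The log2 difference of CD41/CD9-negative over CD48dim was then 1.77 or 1.78.

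Itga5 encodes alpha5, the partner of beta1 in the main fibronectin receptor, and moved the other way. Its locus is on chromosome 15 (103344286 to 103366791, minus strand). Its level was 60.1 and 102.8 CPM in CD34bright, 60.0 and 39.2 in CD41/CD9-negative, 78.9 and 57.8 in CD48bright, and 177.4 and 186.1 in CD48dim libraries. The CD48dim libraries lay above all 6 others, while CD48bright overlapped with both CD34bright and CD41/CD9-negative. In CD41/CD9-negative cells it averaged 49.6 ± 14.8 CPM against 181.7 ± 6.1 CPM in CD48dim cells (SD, n = 2 each), a log2 fold change of -1.87 ± 0.39 (edgeR adjusted p = 0.0331). That call was lost without CD34bright replicate 2 (adjusted p = 0.0527), CD41/CD9-negative replicate 1 (0.141) or replicate 2 (0.278), and CD48bright replicate 1 (0.0519) or replicate 2 (0.0545), all by edgeR. It held at -1.90 without CD48dim replicate 1 and at -1.84 without CD48dim replicate 2. CD34bright (-1.16 ± 0.38, adjusted p = 0.164) and CD48bright (-1.41 ± 0.39, adjusted p = 0.169) against CD48dim did not pass in edgeR. Both passed without CD48dim replicate 1 (-1.18 and -1.43), where far more of all genes passed than in the full fit. Neither passed without CD48dim replicate 2. For any difference the adjusted p was 0.0766, and it was 0.043 with the replicate block, 0.0161 without CD48dim replicate 1 and 0.0316 without CD48dim replicate 2.

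**Figure D2:**
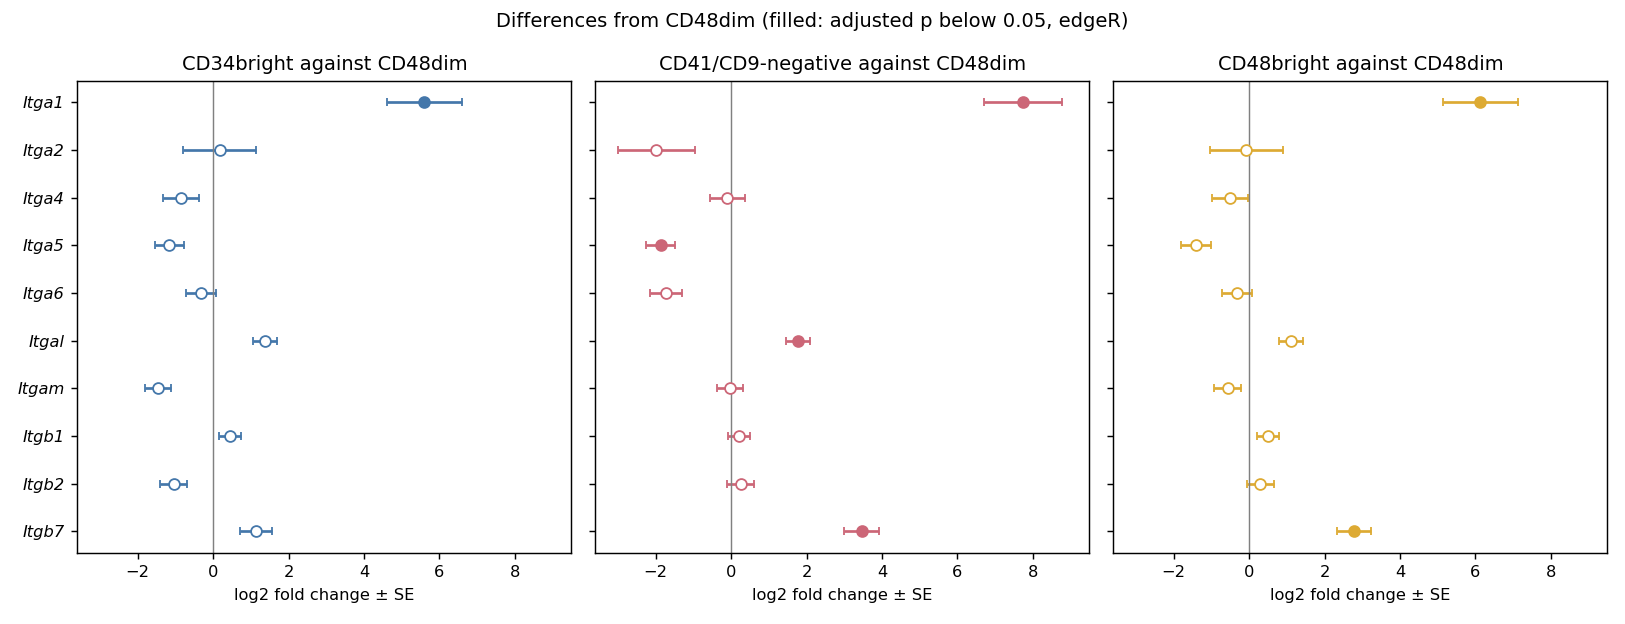
Log2 fold change of each integrin gene against CD48dim cells, with its SE, for CD34bright, CD41/CD9-negative and CD48bright cells; filled points had an edgeR adjusted p below 0.05. Filled points stand at Itga1 in all 3 panels (its fitted value depends on the prior count), at Itgb7 in the CD41/CD9-negative and CD48bright panels, and at Itga5 and Itgal in the CD41/CD9-negative panel.

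In the 6 pairs of fractions, CD41/CD9-negative against CD48dim held the most calls. There Itga1, Itgal and Itgb7 rose and Itga5 fell, 4 of 10 members, where 4.02% of all tested genes passed (1.98% higher and 2.04% lower). With the replicate block it was 5 of 10 (7.32%). The median log2 fold change of the 10 members was 0.08, against -0.06 over all genes. In CD48bright against CD48dim 2 of 10 rose (0.387% of all genes were called, 0.273% higher and 0.114% lower, and 1.35% with the block), in CD34bright against CD48dim 1 of 10 rose (0.577%, with 0.364% higher and 0.212% lower), and in CD34bright against CD41/CD9-negative 1 of 10 fell (0.842%, with 0.266% higher and 0.577% lower). In CD41/CD9-negative against CD48bright 0 of 10 passed in edgeR (0.212% of all genes, 0.0835% higher and 0.129% lower, and 0.751% with the block), with 2 members and 938 of 13177 genes at an unadjusted p below 0.05, and DESeq2 and limma-voom also called 0. In CD34bright against CD48bright 0 of 10 members passed, as did 0 genes in all, with 3 members and 262 of 13177 genes at an unadjusted p below 0.05, and DESeq2 and limma-voom called 0 members. With the replicate block the count was 3 of 10 in CD34bright against CD48dim (5.18% of all genes) and 2 of 10 in CD34bright against CD41/CD9-negative (2.02%). These pairs share libraries, so their calls are not independent of each other. CD34bright and CD41/CD9-negative libraries did not overlap for 10 of 10 members, where 51.0% of all tested genes did not overlap. The count was 7 in CD34bright against CD48dim (46.3% of all genes), 4 in CD34bright against CD48bright (32.0%), 6 in CD48bright against CD48dim (39.1%), 7 in CD41/CD9-negative against CD48dim (43.6%) and 8 in CD41/CD9-negative against CD48bright (40.1%).

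The promoters of the members with the clearest opposite order are shown because Itgb7 and Itga1 were lowest, and Itga5 highest, in the same CD48dim libraries. Each window runs 5′ to 3′ on the gene's strand from 250 bases before to 50 bases after a transcript start of RefSeq (GRCm38.p6), and 7 of the 10 members have one in that table (Itga6, Itgal and Itgb2 do not). Capitals mark matches, on either strand, to 4 short motifs. The motif of GATA factors was searched as AGATAA. That of RUNX factors was searched with the letters TGTGGT. For PU.1 and other ETS factors the letters were GAGGAA. The GC box was searched as the run GGGCGG. In these 3 windows no matches overlap. The windows are chr15:102231886-102232185 for Itgb7, chr13:115101915-115102214 for Itga1 and chr15:103366742-103367041 for Itga5, all on the minus strand. The Itgb7 window lies wholly within the span of its gene (102215994 to 102233405), so it belongs to an internal start. Those of Itga1 and Itga5 span the upper ends of their genes.
Itgb7 promoter: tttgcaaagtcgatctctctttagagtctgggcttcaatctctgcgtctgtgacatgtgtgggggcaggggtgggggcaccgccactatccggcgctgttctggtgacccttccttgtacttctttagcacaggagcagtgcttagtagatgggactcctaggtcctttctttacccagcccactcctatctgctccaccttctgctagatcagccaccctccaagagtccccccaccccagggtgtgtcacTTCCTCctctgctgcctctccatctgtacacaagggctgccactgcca
Itga1 promoter: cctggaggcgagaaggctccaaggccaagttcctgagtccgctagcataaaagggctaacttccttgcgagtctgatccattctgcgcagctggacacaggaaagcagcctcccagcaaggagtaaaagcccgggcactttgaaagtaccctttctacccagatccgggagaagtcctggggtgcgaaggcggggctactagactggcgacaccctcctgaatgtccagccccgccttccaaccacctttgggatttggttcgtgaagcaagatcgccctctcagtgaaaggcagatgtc
Itga5 promoter: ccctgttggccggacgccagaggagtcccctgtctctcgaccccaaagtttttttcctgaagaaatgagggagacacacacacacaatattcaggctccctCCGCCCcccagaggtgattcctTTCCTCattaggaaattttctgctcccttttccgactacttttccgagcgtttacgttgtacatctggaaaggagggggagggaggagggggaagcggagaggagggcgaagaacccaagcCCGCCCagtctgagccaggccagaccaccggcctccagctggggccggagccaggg
The Itgb7 window held 1 match to the ETS motif, and the Itga1 window held 0 matches to any of the 4 motifs. The Itga5 window held 1 match to the ETS motif and 2 to the GC box. Of 32851 promoter windows in the table, 11.2% held the GATA motif, 16.8% the RUNX motif, 28.3% the ETS motif and 35.7% the GC box. A match is a string of letters and not a bound site.

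Itga6 encodes alpha6, which with beta1 forms a laminin receptor known as a surface marker of stem and progenitor cells. It lies on chromosome 2 (71786886 to 71858427, plus strand). Its level was 238.1 and 230.0 CPM in CD34bright, 80.6 and 96.1 in CD41/CD9-negative, 185.6 and 281.2 in CD48bright, and 185.6 and 401.0 in CD48dim libraries. CD41/CD9-negative libraries lay below the other 6, and the CD41+ fractions overlapped with each other. CD41/CD9-negative against CD48dim gave a log2 fold change of -1.73 ± 0.42 (edgeR adjusted p = 0.0529), which passed with the replicate block (-1.66, adjusted p = 0.016). This pair also passed without CD48dim replicate 1 (-2.17). It did not pass without CD48dim replicate 2, where CD48dim was higher by a log2 difference of 1.07. Within replicate numbers the difference was -1.20 between the libraries numbered 1 and -2.05 between those numbered 2. CD34bright against CD41/CD9-negative gave 1.41 ± 0.41 (adjusted p = 0.206) and CD41/CD9-negative against CD48bright -1.40 ± 0.41 (adjusted p = 0.312), neither passing in edgeR. Both passed without CD48dim replicate 1 (adjusted p = 0.00961 and 0.0149) or replicate 2 (0.0087 and 0.0139). For any difference the adjusted p was 0.161, and 0.0498 with the block. Itga6 also passed for any difference without CD48dim replicate 1 or replicate 2.

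Itgam encodes alphaM, the partner of beta2 in the complement receptor Mac-1 of neutrophils and macrophages. Its locus is on chromosome 7 (128062640 to 128118491, plus strand). It lay at 51.6 and 30.8 CPM in CD34bright, 116.2 and 106.2 in CD41/CD9-negative, 84.5 and 68.2 in CD48bright, and 120.1 and 106.6 in CD48dim libraries. CD34bright was the lowest fraction and did not overlap with any other, while CD41/CD9-negative and CD48dim overlapped. CD34bright against CD48dim gave -1.46 ± 0.35 (edgeR adjusted p = 0.0911), and CD34bright against CD41/CD9-negative -1.43 ± 0.35 (adjusted p = 0.125). Both passed with the replicate block (-1.49, adjusted p = 0.0268, and -1.46, adjusted p = 0.0371). For any difference the adjusted p was 0.134, and 0.0435 with the block. Summed mature neutrophil transcripts were 130.7 and 165.6 CPM in CD34bright, 702.0 and 49.9 in CD41/CD9-negative, 157.1 and 115.2 in CD48bright, and 4174.9 and 624.8 in CD48dim libraries. Their part in the Itgam level was not tested. Without CD48dim replicate 1, the library with the highest neutrophil sum, CD34bright against CD48dim gave -1.36 (adjusted p = 0.0154), and without CD48dim replicate 2 it gave -1.53 (adjusted p = 0.0273), both passing. CD34bright against CD41/CD9-negative also passed without replicate 1 (adjusted p = 0.0158) or replicate 2 (0.0133) of CD48dim, as did the test for any difference (0.0209 and 0.0267).

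Itgb2 encodes beta2, the shared partner of alphaL, alphaM, alphaX and alphaD. It lies on chromosome 10 (77530329 to 77565708, plus strand). Its level was 25.0 and 25.2 CPM in CD34bright, 60.7 and 61.7 in CD41/CD9-negative, 71.8 and 55.0 in CD48bright, and 40.4 and 62.8 in CD48dim libraries. CD34bright was the lowest in every library, and the other fractions overlapped. CD34bright averaged 25.1 ± 0.106 CPM, and CD48bright, the highest, 63.4 ± 11.8 CPM (log2 fold change -1.34 ± 0.37, edgeR adjusted p = 1, unadjusted p = 0.00482). Against CD41/CD9-negative CD34bright gave -1.29 ± 0.37 (adjusted p = 0.191) and against CD48dim -1.04 ± 0.36 (adjusted p = 0.179). Without CD48dim replicate 1 both passed (adjusted p = 0.0202 and 0.0139), and without CD48dim replicate 2 the first did (0.0211). For any difference the adjusted p was 0.201, but 0.016 without CD48dim replicate 1 and 0.0329 without CD48dim replicate 2.

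Itga4 encodes alpha4, which binds VCAM1 and fibronectin with beta1 and MAdCAM1 with beta7. It lies on chromosome 2 (79255426 to 79333114, plus strand). Per length it was the most abundant of the 10 members in 7 of 8 libraries, with 81.3 to 425.7 TPM, against 75.2 to 137.2 TPM for Itgb1. Its level was 538.6 and 646.7 CPM in CD34bright, 1016.6 and 991.3 in CD41/CD9-negative, 639.0 and 883.0 in CD48bright, and 559.0 and 1590.8 in CD48dim libraries. The CD48dim libraries lay as far apart as 559.0 and 1590.8 CPM, the higher value above all others, and the fractions did not differ beyond this spread (edgeR adjusted p = 0.68 for any difference). CD48dim replicate 2 decided the order: the log2 difference of CD48dim over CD34bright was 0.86 with all libraries, 1.41 without CD48dim replicate 1 and -0.09 without CD48dim replicate 2. The adjusted p for any difference was 0.031 and 0.227 in these fits, and without CD48dim replicate 1 CD34bright (-1.41, adjusted p = 0.00858) and CD48bright (-1.05, adjusted p = 0.0399) against CD48dim passed. Cerkl shares exon bases with Itga4, but had 346 counts over all libraries against 85879 for Itga4.

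Itgb1 encodes beta1, the common partner of alpha1, alpha2, alpha4, alpha5 and alpha6. Its locus is on chromosome 8 (128685654 to 128733579, plus strand). Its level was 267.7 and 220.8 CPM in CD34bright, 208.9 and 203.8 in CD41/CD9-negative, 239.9 and 273.5 in CD48bright, and 172.6 and 187.6 in CD48dim libraries. The highest mean was 256.7 ± 23.7 CPM in CD48bright and the lowest 180.1 ± 10.6 CPM in CD48dim cells, a log2 fold change of 0.51 ± 0.29 (edgeR adjusted p = 0.454). Of the 10 members it had the smallest difference between its highest and lowest fraction.

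Itga2 encodes alpha2, which with beta1 binds collagen and marks NK cells and platelets in the mouse. It lies on chromosome 13 (114833081 to 114932100, minus strand). It was read at 3.71 and 3.84 CPM in CD34bright, 1.10 and 0.565 in CD41/CD9-negative, 4.42 and 1.92 in CD48bright, and 4.04 and 2.61 in CD48dim libraries, from 7 to 85 counts each. CD41/CD9-negative libraries were below the other 6, which overlapped with each other. CD34bright against CD41/CD9-negative gave 2.17 ± 1.03 (edgeR adjusted p = 0.541) and did not pass, although the libraries did not overlap. It is the only member outside the authors' smaller table of genes. T and NK cell transcripts summed to 340.7 and 270.4 CPM in CD34bright, 68.7 and 52.5 in CD41/CD9-negative, 414.3 and 263.9 in CD48bright, and 261.3 and 67.2 in CD48dim libraries. Of the 7 genes of that list 6 or 7 had counts in each library outside CD48dim, where 4 and 3 had counts. Cd3g and Cd2 were at 0 in both CD48dim libraries. Their part in the Itga2 level was not tested.

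Subunit genes can be set beside each other only per length, as the authors' deposited TPM, which divides by transcript length. The ratio of Itgb7 to Itgb1 was 0.16 and 0.164 in CD34bright, 1.14 and 0.778 in CD41/CD9-negative, 0.442 and 0.527 in CD48bright, and 0.138 and 0.0642 in CD48dim libraries. So Itgb7 was near the level of Itgb1 in CD41/CD9-negative cells and far below it in CD34bright and CD48dim cells. Its other alpha partner, Itgae, lay at 0.05 to 0.73 TPM in all 8 libraries, far under Itga4.

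The alpha partners of beta2 also differed in their mix. Of the summed TPM of Itgal, Itgam, Itgax and Itgad, Itgal made up 73.3% and 84.9% in CD34bright, 53.3% and 48.9% in CD41/CD9-negative, 55.8% and 61.6% in CD48bright, and 36.5% and 39.6% in CD48dim libraries. Itgam made up 24.3% and 12.7%, 24.5% and 23.6%, and 34.1% and 25.8% in the first 3 of these fractions and 63.4% and 60.4% in CD48dim, where it was above Itgal. Itgax, the gene of alphaX of dendritic cells, made up 21.0% and 25.6% in CD41/CD9-negative, 9.06% and 12.1% in CD48bright, 2.28% and 2.2% in CD34bright, and 0.0952% and 0% in CD48dim libraries. These shares are descriptions of 2 libraries a fraction, with no test.

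Among 12 alpha genes whose products can pair with beta1, Itga4 made up 46.5% and 47.2% of the summed TPM in CD34bright, 72.9% and 71.6% in CD41/CD9-negative, 51.8% and 56.0% in CD48bright, and 41.2% and 55.6% in CD48dim libraries. Itga6 made up 9.64% and 11.5% in CD41/CD9-negative libraries and 22.7% to 34.2% in the other 6. Itga5 made up 30.4% and 15.1% in CD48dim libraries and 6.57% to 17.5% in the others, so its share overlapped.

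**Figure D3:**
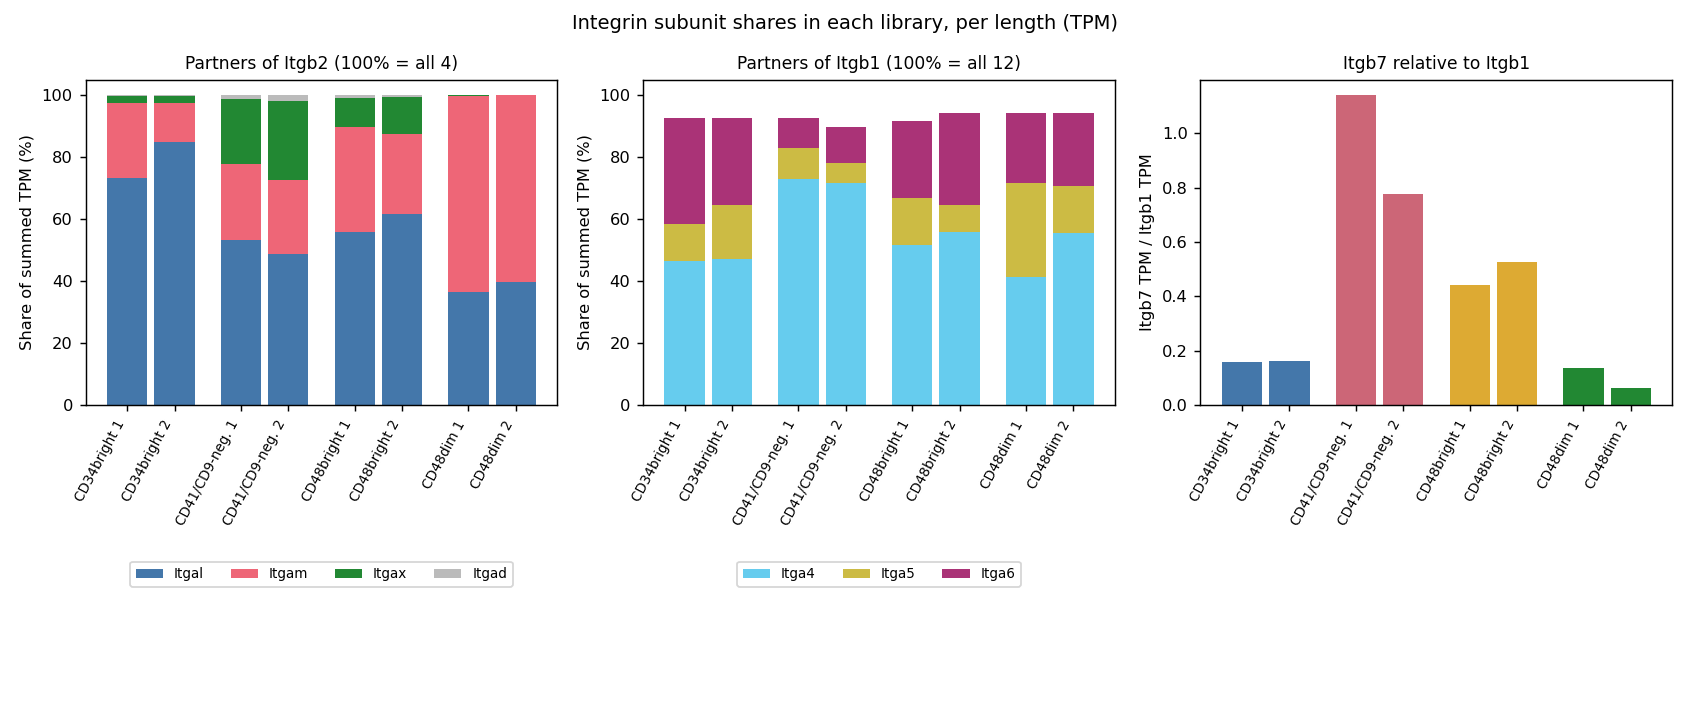
Left and middle: share of the summed TPM in each library taken by each alpha gene among the partners of beta2 (all 4 genes shown) and of beta1 (the 3 most abundant of 12 shown); right: ratio of Itgb7 to Itgb1 TPM, with 1 bar a library. Itgam exceeds Itgal only in CD48dim libraries, and the Itgb7 ratio is 0.778 and 1.14 in CD41/CD9-negative and 0.0642 and 0.138 in CD48dim cells.

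Of 17 other integrin genes, 12 were tested and Itgax and Itga2b passed for any difference. Itgax lay at 91.8 ± 9.43 CPM in CD41/CD9-negative and 0.0734 ± 0.104 CPM in CD48dim cells (edgeR adjusted p = 0.000551), and at 4.34 ± 0.299 CPM in CD34bright and 23.2 ± 5.73 CPM in CD48bright cells. Its order of the fractions was that of Itgb7. Its call in CD41/CD9-negative against CD48dim held in all 8 fits with 1 library left out. Itga2b, the gene of the sort marker CD41, lay at 2.51 ± 0.462 CPM in CD41/CD9-negative cells against 133.7 ± 30.4 CPM in CD48dim cells. This follows the gate and is no independent result. Itgb3, whose product pairs with that of Itga2b, lay at 30.6 ± 14.6 CPM in CD41/CD9-negative and 81.1 ± 30.3 CPM in CD48dim cells and did not pass (log2 fold change -1.41 ± 0.45, edgeR adjusted p = 0.124), except without CD48dim replicate 2 (-1.74, adjusted p = 0.016). Itgad was called in CD41/CD9-negative against CD48dim alone of the 6 pairs, with 60 and 89 counts against 0 and 0 (edgeR adjusted p = 0.037), and did not pass for any difference (adjusted p = 0.0735). That pair's call was lost without any 1 of the 6 libraries outside CD48dim (adjusted p = 0.0682 to 0.252), and without CD48dim replicate 1 or replicate 2 it passed for any difference (0.0131 and 0.0187).

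Of 31 genes of integrin ligands 19 were tested, and Fn1, the fibronectin gene, passed for any difference (edgeR adjusted p = 0.018), except without CD41/CD9-negative replicate 1 (0.0903) or replicate 2 (0.0726). It lay at 12.8 ± 0.856 CPM in CD34bright, 70.3 ± 11.9 in CD41/CD9-negative, 62.5 ± 5.63 in CD48bright and 9.79 ± 4.52 CPM in CD48dim cells. Its level was thus high in CD41/CD9-negative and CD48bright cells and low in the other fractions. Of 27 activators and inhibitors 24 were tested and 1 passed: Rasgrp3, an exchange factor that activates Rap1 and Ras. It averaged 18.0 ± 9.93 CPM in CD41/CD9-negative and 0.252 ± 0.162 CPM in CD48dim cells (log2 fold change 6.02 ± 1.10, edgeR adjusted p = 0.0199). This was lost without CD41/CD9-negative replicate 1 (5.35, adjusted p = 0.214) or replicate 2 (6.51, adjusted p = 0.0758), as was its call for any difference (0.223 and 0.0741), also lost without CD34bright replicate 2 (0.0511). Of 36 genes of adhesion signalling 32 were tested and 1 passed: Fgr, a Src family kinase of myeloid cells. It lay at 1.77 ± 1.12 CPM in CD34bright and 58.7 ± 18.1 CPM in CD41/CD9-negative cells (log2 fold change -5.06 ± 0.83, edgeR adjusted p = 0.0315). Without any 1 of these 4 libraries this call (adjusted p = 0.13 to 0.236) and that for any difference (0.0909 to 0.223) were lost. Each of these lists had 1 or 2 calls for any difference, where 2.44% of all tested genes passed.

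By Pearson correlation of log2(CPM + 0.5) over the 8 libraries, the 3 genes most like Itgb7 were Cd52 (0.986), Sowahc (0.982) and Tlr9 (0.982). Tlr9, a receptor for bacterial DNA, averaged 49.6 CPM in CD41/CD9-negative and 0.367 CPM in CD48dim cells. For Itga1 they were Clec2i (0.988), Cx3cr1 (0.988) and Mob1a (0.987), and for Itga2 they were Nucb1 (0.981), Mgat4b (0.97) and Ppic (0.968). Among the members, Itga1 went with Itgal (0.95) and Itgb7 (0.90) and against Itga5 (-0.92), while Itgam went with Itgb2 (0.76). The 8 points are 4 pairs of replicates that share scaling, so these values describe the order of the fractions and carry no test.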

How the data were processed

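Bulk RNA-seq was deposited for 8 libraries, 2 for each of 4 sorted fractions, and samples were grouped by the sort gates in the labels. Per the labels' protocols, total RNA was amplified with the Ovation system, so the libraries carry no strand. The authors' deposited expected counts and TPM have the layout of RSEM per the file headers; the submitters' processing notes name STAR 2.7.2a, RSEM 1.3.2, edgeR 3.30.3 and mm10. The posterior standard deviation of the count is in the same deposited tables. Smaller deposited tables, of at most 9918 genes, repeat these values. For the annotation release and settings: not given in the sources used here.

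Expected counts were rounded, filtered with filterByExpr (13177 of 24411 genes kept) and scaled by TMM, and CPM is relative to that scaled total. edgeR 4.0.16 (R 4.3.3) fitted all 8 libraries in 1 model with a mean per fraction and 4 residual degrees of freedom; calls were two-sided at a Benjamini-Hochberg adjusted p below 0.05 over all tested genes. The SE is the log2 fold change divided by the square root of F. DESeq2 1.42.0, limma-voom (limma 3.58.1), RLE scaling, no filter, the replicate block, fits of the 4 libraries compared and leaving out each library were alternatives. Libraries with the same number deviated together in every pair of fractions (correlations of 0.142 to 0.274 over genes), so blocked values are given where they change a call; what the number marks is not stated. Depth was 7237587 to 20632005 counts. The count intervals cover counting error only, since reads are not independent molecules.

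The members and gene lists were chosen with earlier results of these data known. Named are all members, the platelet pair, up to 4 called genes per list, the 3 genes most like each of 3 members (mean of at least 8 CPM), and overlapping genes; Itgad and Itgae were named after their values were seen. Positions are those of RefSeq GRCm38.p6, the assembly of mm10.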

Additional observations from a re-analysis of the deposited data

How the results depend on the processing

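Over 18 results on single members, 242 recomputations gave 174 with the same direction and call, 44 that no longer passed, 23 that newly passed and 1 that reversed: Itga4 in CD48dim over CD34bright was -0.09 without CD48dim replicate 2 and 1.41 without replicate 1. The cause was not tested. RLE scaling moved none of the counts below by more than 1.5 times.

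Calls among all genes for any difference were 322, and 1607 with no filter, 1700 with DESeq2, 141 with limma-voom, 764 with the replicate block and 32 to 3399 with 1 library left out. For CD34bright against CD48dim they were 76, and 1018, 1260, 45 and 682 in the same order, 0 from only the 4 libraries compared, and 0 to 3911 with 1 library left out. For CD34bright against CD48bright they were 0, and 39 with no filter, 33 with DESeq2 and 0 to 20 with 1 library left out. For CD34bright against CD41/CD9-negative they were 111, and 532 with no filter, 631 with DESeq2, 266 with the replicate block, 1081 from the 4 libraries compared and 3 to 772 with 1 left out. For CD48bright against CD48dim they were 51, and 588 with no filter, 775 with DESeq2, 5 with limma-voom, 178 with the replicate block, 0 from the 4 libraries compared and 4 to 3211 with 1 left out. For CD41/CD9-negative against CD48dim they were 530, and 1191 with no filter, 1538 with DESeq2, 965 with the replicate block, 129 from the 4 libraries compared and 81 to 3295 with 1 left out. For CD41/CD9-negative against CD48bright they were 28, and 301 with no filter, 362 with DESeq2, 99 with the replicate block, 307 from the 4 libraries compared and 0 to 435 with 1 left out.

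Of the 10 members, 2 passed for any difference, and 6 with no filter, with DESeq2 and with the replicate block, 1 with limma-voom and 0 to 8 with 1 library left out. For CD34bright against CD48dim it was 1, and 3 with no filter, with DESeq2 and with the replicate block, 0 with limma-voom and from the 4 libraries compared, and 0 to 7 with 1 left out. For CD34bright against CD41/CD9-negative it was 1, and 3 with no filter, 5 with DESeq2, 2 with the replicate block, 5 from the 4 libraries compared and 0 to 5 with 1 left out. For CD48bright against CD48dim it was 2, and 4 with DESeq2, 0 with limma-voom and from the 4 libraries compared, and 0 to 5 with 1 left out. For CD41/CD9-negative against CD48dim it was 4, and 2 from the 4 libraries compared and 2 to 5 with 1 left out. For CD41/CD9-negative against CD48bright it was 0, and 1 with no filter and from the 4 libraries compared, and 0 to 1 with 1 left out. For CD34bright against CD48bright it was 0 in each of these. Every setting that called more members than the main fit also called more of all genes, as counted above. A member count under an alternative is therefore no result about the integrin genes by itself. The main fit and the block tested 13177 genes, and the fit with no filter tested the 18488 genes with a count. Apart from the calls named with the members, the block changed no call of a member. Where 1 library is left out, the lone library of its fraction is assumed to vary like the others. With 2 libraries a fraction, and 0 to 2 Itga1 counts in CD48dim, few libraries and low counts limit the precision of these values.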
